A study of Rattus norvegicus with 24 samples.

Results

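The cell cycle and DNA replication genes are a set of 40 rat genes, chosen by name, that a dividing cell needs to pass from G1 through DNA synthesis to mitosis. All probe sets whose platform annotation gave 1 of these symbols were taken from both array types. This gave 57 probe sets for 39 of the 40 genes, out of 31142 probe sets and 13810 named genes in all, while Tpx2 was not analysed here. They were read in left kidney RNA of male rats of 3 strains, the inbred Dahl salt-sensitive strain SS/jr (S) and its congenic substrains, ET3x1 and ET3x2. From general knowledge of these strains, both substrains carry alleles of a salt-resistant strain near the endothelin 3 gene (Edn3) on chromosome 3 on an S background, and the limits of each segment are not given in the sources used here. All groups, S included, ate 0.4% NaCl up to 39 to 41 days of age, then 2% NaCl for 28 days, and were 67 to 69 days old at the end, so that no group stayed on the lower salt. RNA was pooled in equal amounts before hybridisation, from 2 rats per pool in S (pools A to D) and 3 rats per pool in ET3x1 (pools E to H) and ET3x2 (pools I to L), 32 rats in 12 pools. The value of a single rat is therefore not seen, and an S pool averages over fewer rats than a congenic pool. Each pool was hybridised to 1 Affymetrix RAE230A and 1 RAE230B array, 24 arrays in all.

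Cyclins D and E with the kinases Cdk4 and Cdk2 carry a cell out of G1, in large part by releasing E2F transcription factors from the retinoblastoma proteins. E2F then raises the genes of the replication machinery, while the genes of mitosis are raised later, by complexes that bind CHR and CCAAT elements in their promoters. In the adult kidney few tubule cells divide, and division increases after tubular injury, in growth and in infiltrating leukocytes. Whole kidney RNA holds all these cells, and fewer cells of a type and less RNA per cell cannot be told apart in it. By role the set was divided into 6 G1 cyclin and kinase genes, 13 replication genes and 21 mitosis genes.

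The promoters of 4 members are printed to show what these elements look like, chosen from those that hold them after the values were seen. Not every member holds each element: the windows of Ccnb1 and Nusap1 have 2 CCAAT (NF-Y) motifs each and 0 of the other elements. RefSeq promoters of the assembly GRCr8 were at hand for 32 of the 40 genes, as 34 windows of the 250 bases before a transcription start. Each is written 5′ to 3′ on the strand of the gene, and capitals mark an E2F motif (TTTGGCGC, TTTGCCGC, TTTCGCGC or TTTCCCGC), a CHR motif (TTTGAA or TTCGAA) or an NF-Y motif (CCAAT), on either strand, where E2F matches may overlap one another. Cdk1 (chr20:19265043-19265292, plus strand) and Ccnb2 (chr8:79981659-79981908, minus strand), the kinase and a cyclin that start mitosis, stand first, then Birc5 (chr10:103571896-103572145, plus strand), the survivin of the chromosomal passenger complex, and Mcm5 (chr19:13488563-13488812, plus strand), a subunit of the replicative helicase.
Cdk1: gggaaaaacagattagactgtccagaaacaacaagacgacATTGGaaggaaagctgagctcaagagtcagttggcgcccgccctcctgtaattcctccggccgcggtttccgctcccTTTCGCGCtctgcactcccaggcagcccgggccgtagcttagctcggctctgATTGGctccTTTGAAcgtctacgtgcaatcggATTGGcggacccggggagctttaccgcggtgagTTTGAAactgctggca
Ccnb2: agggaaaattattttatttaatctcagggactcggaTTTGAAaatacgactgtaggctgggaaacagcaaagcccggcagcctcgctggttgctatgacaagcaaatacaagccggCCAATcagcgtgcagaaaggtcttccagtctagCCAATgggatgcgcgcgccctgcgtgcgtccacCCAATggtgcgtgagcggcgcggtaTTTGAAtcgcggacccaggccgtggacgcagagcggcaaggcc
Birc5: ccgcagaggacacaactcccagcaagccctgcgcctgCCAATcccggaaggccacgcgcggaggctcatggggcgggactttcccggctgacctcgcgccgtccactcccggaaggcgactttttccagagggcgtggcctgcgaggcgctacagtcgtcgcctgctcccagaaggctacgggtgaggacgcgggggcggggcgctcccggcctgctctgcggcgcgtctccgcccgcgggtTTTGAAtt
Mcm5: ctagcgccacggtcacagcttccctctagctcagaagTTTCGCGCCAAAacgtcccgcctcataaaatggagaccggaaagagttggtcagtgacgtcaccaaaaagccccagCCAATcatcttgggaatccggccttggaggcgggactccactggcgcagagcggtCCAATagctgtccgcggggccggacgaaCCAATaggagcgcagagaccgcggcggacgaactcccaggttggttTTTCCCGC
In the Cdk1 window 1 E2F, 2 CHR and 3 NF-Y motifs were found, in that of Ccnb2 0, 2 and 3, in that of Birc5 0, 1 and 1, and in that of Mcm5 3, 0 and 3. CHR motifs were in 9 of 18 mitosis promoters (50%), 4 of 12 replication promoters (33.3%) and 17.4% of all 33469 promoters. Both a CHR and an NF-Y motif were in 8 of the 18 mitosis promoters (44.4%), against 6.31% of all. E2F motifs were in 5 of 12 replication promoters (41.7%), those of Mcm2, Mcm5, Mcm6, Mcm7 and Tyms, in 1 of 18 mitosis promoters (5.56%) and in 1.73% of all. NF-Y motifs were in 13 of 18 mitosis promoters (72.2%), 6 of 12 replication promoters (50%), 2 of 4 G1 promoters and 34.0% of all. A match describes the letters of the window and is no site of binding.

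The deposited values were read as log2 signal, so that a difference of 1 is a doubling, and they are compared between pools for 1 probe set at a time. Probe sets with a mean below 7.52 on RAE230A or 6.85 on RAE230B, the 30th percentile of each array type, were not tested. Of the 57 member probe sets 45 passed, for 33 genes: 9 of 9 of the G1 list, 14 of 17 of replication and 22 of 31 of mitosis. All measured probe sets of Bub1b, Ccna2, Mcm4, Mcm6, Mki67 and Rrm2 lay under the filter, so that the proliferation marker Mki67 has no test here. Differences come from 1 limma fit per array type over all 12 pools, with standard errors (SE) for 4 pools in each group, and a call needs an adjusted p under 0.05 (Benjamini-Hochberg over all probe sets of the array type). Both comparisons with S use the same 4 S pools and are not independent of each other. The kidney genes Umod, Slc12a1, Slc34a1, Lrp2 and Aqp2 passed the filter, with a mean log2 signal over the list of 12.9 to 13.2 in every pool, and the adrenal genes Cyp11b1 and Star were under the filter.

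In ET3x2 kidneys the mitosis genes lay higher as a list than in S and ET3x1 kidneys, by small amounts. The probe sets Dut 1395361_at and, of the D cyclins, Ccnd1 1383075_at and Ccnd2 1370810_at lay lower. The other tested probe sets of Dut and Ccnd1 overlapped between the strains. In ET3x1 against S no member probe set was called, where 0.44% of all 21799 tested probe sets were. At an unadjusted p under 0.05 there 2 of 45 were higher and 1 was lower, where 7.44% of all were higher and 4.41% lower, and the pool ranges lay apart with ET3x1 higher in 3 and lower in 1, where 4.41% and 1.99% of all did so. Those shares are near the background. In ET3x2 against S 1 of 45 was called, Dut 1395361_at, which fell, with 0.344% of all called. Here 9 were higher and 3 lower at an unadjusted p under 0.05 (6.89% and 3.98% of all), and ranges lay apart in 8 with ET3x2 higher and in 3 with it lower (3.87% and 2.09% of all). In ET3x2 against ET3x1 2 of 45 were called, Dut 1395361_at and Ccnd2 1370810_at, both of which fell, with 1.48% of all called. At an unadjusted p under 0.05 7 were higher and 4 lower (6.71% and 6.39% of all), and ranges lay apart in 6 with ET3x2 higher and 2 with it lower (4.96% and 4.18% of all). The median log2 difference of the 45 was −0.0025 for ET3x1 minus S, 0.097 for ET3x2 minus S and 0.095 in ET3x2 against ET3x1, beside −0.0047, 0.025 and 0.032 over all probe sets. The number called in ET3x2 against S was 0 without pool A, 3 without D and 2 without G or without H, and in ET3x2 against ET3x1 it was 0 without pool E and 1 without G, J, K or L. The share of all probe sets called in these fits is not given, so that the changes cannot be read as particular to the members. Of all probe sets 4.01% to 9.49% and 4.06% to 10.4% were higher there at an unadjusted p under 0.05.

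**Figure D1:**
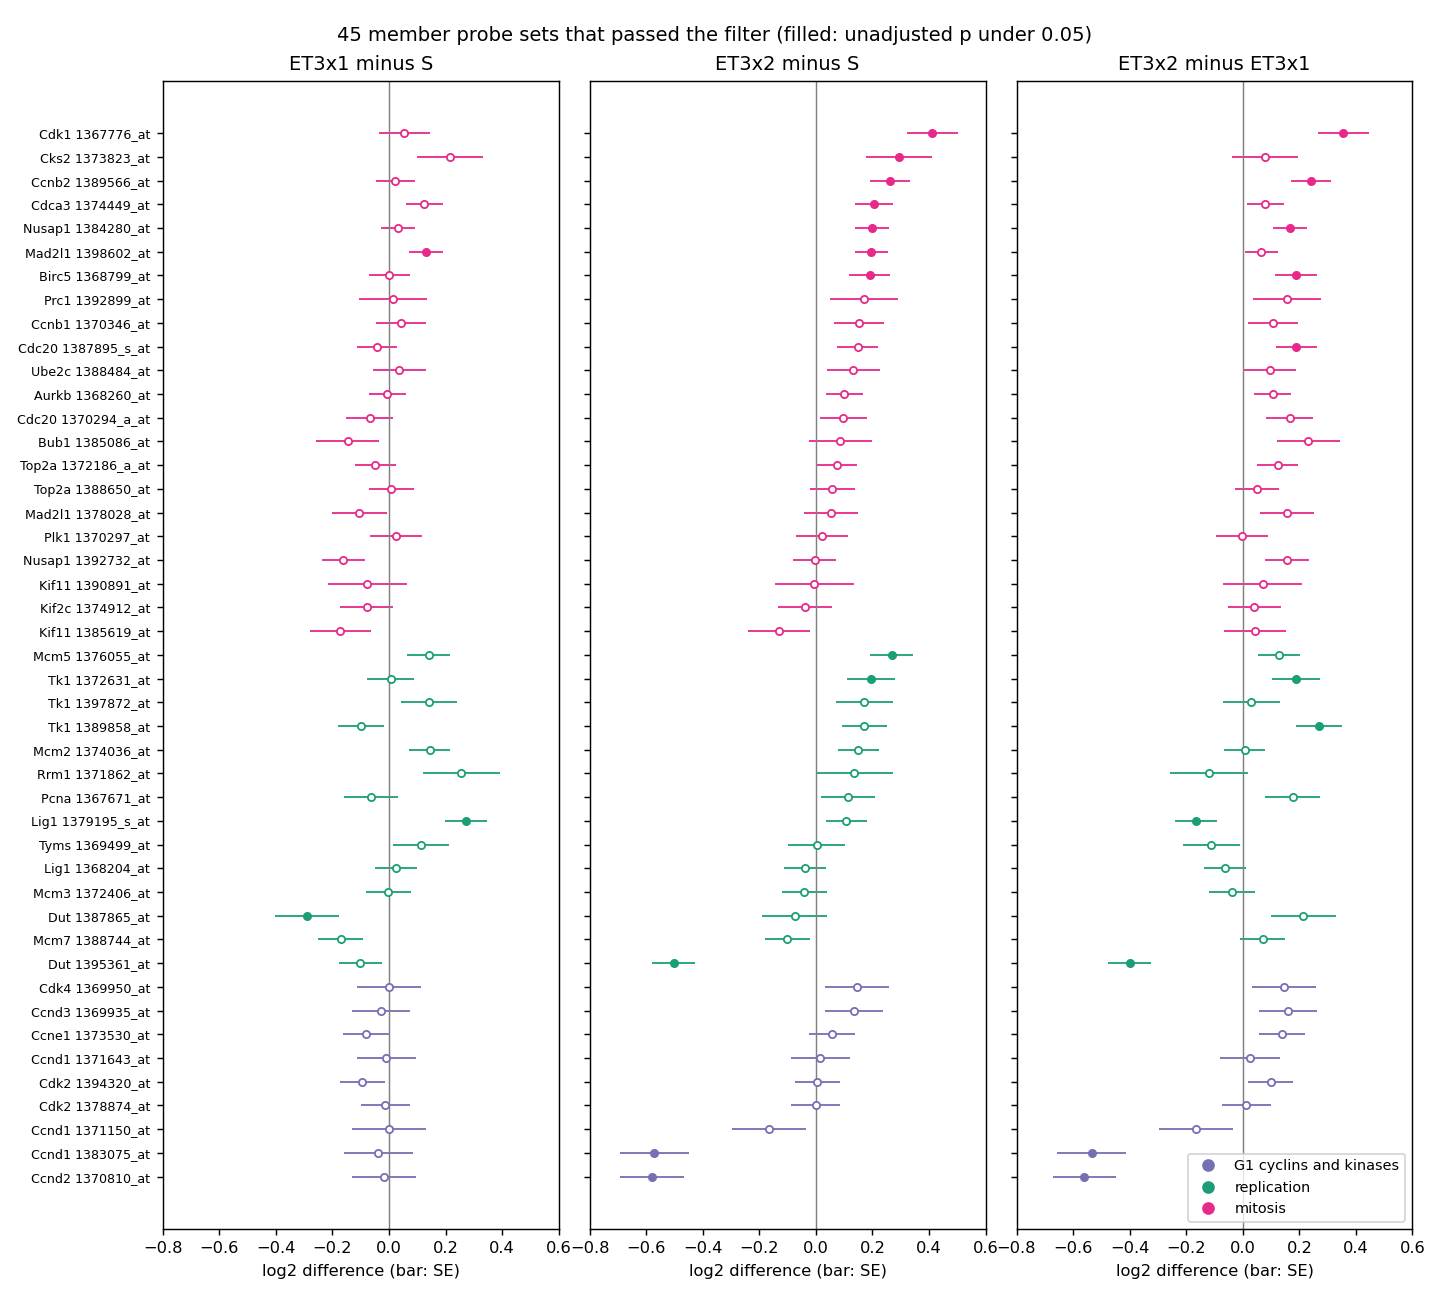
Log2 difference (x axis) of each of the 45 member probe sets that passed the filter, in a row of its own, for ET3x1 minus S, ET3x2 minus S and ET3x2 minus ET3x1. Bars are SE of the fit with 4 pools per strain, colours give the role and filled points have an unadjusted p under 0.05: in the mitosis list 18 of 22 points lie above 0 in ET3x2 minus S and 21 of 22 in ET3x2 minus ET3x1, and the lowest points are Ccnd2, Ccnd1 1383075_at and Dut 1395361_at.

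Of the 22 mitosis probe sets that passed, 18 were above 0 in ET3x2 against S, with a median difference of 0.12, and 21 in ET3x2 against ET3x1, also with a median of 0.12. Over all probe sets 59.0% and 60.8% were above 0. None was called. At an unadjusted p under 0.05, 7 and 5 were higher (6.89% and 6.71% of all) and 0 were lower (3.98% and 6.39% of all). Pool ranges lay apart in 6 and 4, all with ET3x2 higher, where 3.87% and 4.96% of all did so. In ET3x1 against S 12 of 22 were above 0 (48.4% of all), and the median was 0.0046. At an unadjusted p under 0.05 there 1 was higher and 0 were lower, where 7.44% and 4.41% of all were. With all 31 measured mitosis probe sets, the dim ones included, 26 were above 0 in ET3x2 against S (median 0.097) and 29 in ET3x2 against ET3x1 (median 0.095). After quantile normalisation 19 and 21 of the 22 were above 0, and without any 1 pool 17 to 20 and 20 to 22 were. The number higher at an unadjusted p under 0.05 was 5 to 8 in ET3x2 against S without any 1 pool, and 3 to 7 in ET3x2 against ET3x1, with 3 without pool E. Of all probe sets 4.01% to 9.49% and 4.06% to 10.4% were higher in the same fits.

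Cdk1 is the kinase whose activity starts mitosis. Its probe set 1367776_at read 8.58, 8.35, 8.48 and 8.66 in the S pools, 8.78, 8.45, 8.45 and 8.61 in the ET3x1 pools and 9.02, 8.83, 8.95 and 8.92 in the ET3x2 pools. All 4 ET3x2 pools lay above all 8 others, while S and ET3x1 overlapped. The difference was 0.41 (SE 0.090) against S and 0.36 (SE 0.090) against ET3x1, and both missed the threshold (limma adjusted p = 0.106 and 0.0813). Over the alternatives the adjusted p ran from 0.0178 to 0.344 and from 0.0215 to 0.249, passing in 3 and 2 of 20. Ccnb2, a B-type cyclin that activates Cdk1, read 7.57, 7.50, 7.55 and 7.51 in S, 7.50, 7.68, 7.43 and 7.62 in ET3x1 and 7.90, 7.80, 7.75 and 7.73 in ET3x2 (1389566_at). Again the ET3x2 pools lay above all others, and the S and ET3x1 pools were close to the filter level of 7.52. The difference was 0.26 (SE 0.070, limma adjusted p = 0.183) against S and 0.24 (adjusted p = 0.122) against ET3x1. Ccnb1, the other B-type cyclin, was at 7.60 to 7.90 in S, 7.73 to 7.96 in ET3x1 and 7.78 to 8.03 in ET3x2 (1370346_at), and these ranges overlapped, with differences of 0.15 and 0.11 from S and ET3x1 (limma adjusted p = 0.536 and 0.59). Cks2, a small protein that binds Cdk1, read 8.54, 8.36, 8.72 and 8.91 in S, 8.86, 8.97, 8.70 and 8.87 in ET3x1 and 9.11, 8.73, 8.81 and 9.06 in ET3x2 (1373823_at). Here both congenic strains overlapped with S, and the difference of ET3x2 from S was 0.29 (SE 0.12, limma adjusted p = 0.364).

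Birc5 and Aurkb belong to the chromosomal passenger complex, which corrects the attachment of chromosomes to the spindle. Birc5 1368799_at read 8.66, 8.73, 8.69 and 8.51 in S, 8.60, 8.64, 8.58 and 8.77 in ET3x1 and 8.93, 8.85, 8.80 and 8.76 in ET3x2. The ET3x2 pools lay above all S pools, and ET3x1 pool H lay above ET3x2 pool L. The difference was 0.19 from each of S and ET3x1 (SE 0.074, limma adjusted p = 0.355 and 0.246). Aurkb, the kinase of that complex, was at 7.51 to 7.57 in S, 7.49 to 7.57 in ET3x1 and 7.55 to 7.78 in ET3x2 (adjusted p = 0.591 and 0.467). Nusap1, a spindle microtubule protein, read 8.47, 8.63, 8.48 and 8.53 in S, 8.45, 8.56, 8.59 and 8.62 in ET3x1 and 8.78, 8.69, 8.79 and 8.65 in ET3x2 on 1384280_at. All ET3x2 pools lay above the 8 others, with a difference of 0.20 from S (SE 0.060, limma adjusted p = 0.252) and 0.17 from ET3x1 (adjusted p = 0.287). Its other probe set, 1392732_at, had a difference of −0.0049 from S and 0.16 from ET3x1, so that the probe sets of this gene differed in sign against S.

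Cdca3, which triggers entry to mitosis as part of a ubiquitin ligase, read 8.51, 8.41, 8.50 and 8.55 in S, 8.57, 8.65, 8.53 and 8.71 in ET3x1 and 8.69, 8.69, 8.65 and 8.76 in ET3x2 (1374449_at). The ET3x2 pools lay above the S pools and overlapped with ET3x1, and the difference from S was 0.21 (SE 0.066, limma adjusted p = 0.264). Mad2l1, the spindle checkpoint protein that holds Cdc20, read 7.74, 7.67, 7.77 and 7.78 in S, 7.84, 7.93, 7.84 and 7.85 in ET3x1 and 8.09, 7.90, 7.87 and 7.87 in ET3x2 on 1398602_at. Both congenic strains lay above S in every pool, by 0.13 in ET3x1 (adjusted p = 0.471) and 0.20 in ET3x2 (SE 0.060, adjusted p = 0.252). Its probe set 1378028_at had −0.10 and 0.052 in the same comparisons. Cdc20, the activator of the anaphase-promoting complex, read 7.61, 7.65, 7.56 and 7.70 in S, 7.48, 7.62, 7.53 and 7.71 in ET3x1 and 7.73, 7.86, 7.83 and 7.69 in ET3x2 on 1387895_s_at. The pools overlapped between ET3x2 and both others, and the difference was 0.15 from S and 0.19 from ET3x1 (SE 0.071, limma adjusted p = 0.449 and 0.22).

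The other mitosis members gave small differences with overlapping pools in most cases. Top2a, the topoisomerase that untangles sister chromosomes, read 8.85, 8.76, 8.59 and 8.66 in S, 8.84, 8.72, 8.63 and 8.69 in ET3x1 and 8.67, 8.89, 8.70 and 8.81 in ET3x2 on its brightest probe set 1388650_at. These pools overlapped in all 3 strains, with 0.058 and 0.050 from S and ET3x1 (limma adjusted p = 0.827 and 0.806). Bub1 (spindle checkpoint), Prc1 (midzone of the spindle) and Ube2c (the ubiquitin-conjugating enzyme of the anaphase-promoting complex) were at 0.086, 0.17 and 0.13 from S. From ET3x1 they were at 0.23, 0.16 and 0.095. For Bub1 all ET3x2 pools lay above the ET3x1 pools (limma adjusted p = 0.473) and overlapped with S. Plk1, a kinase of many mitotic steps, was at 0.022 from S. The motor protein genes Kif11 and Kif2c were the ones below 0 against S besides Nusap1 1392732_at, with −0.13 and −0.0061 for the probe sets of Kif11 and −0.038 for Kif2c.

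**Figure D2:**
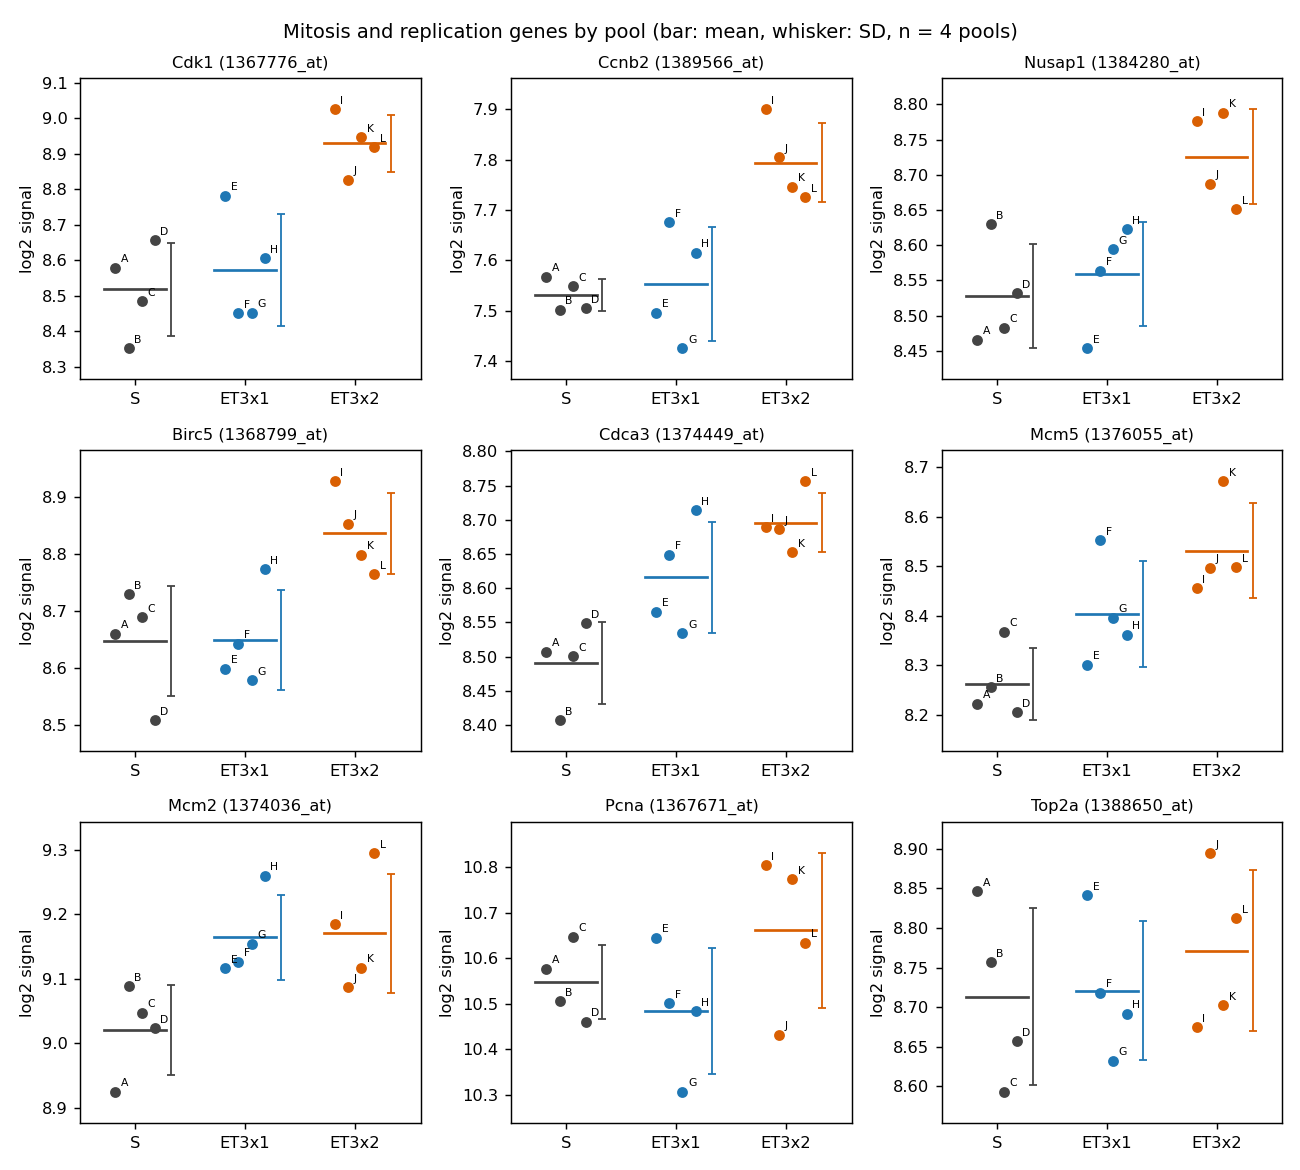
Log2 signal (y axis, own scale for each panel) of 9 mitosis and replication probe sets in the 12 pools, by strain, with each point a pool marked by its letter, the horizontal bar the mean and the whisker the SD of 4 pools. For Cdk1, Ccnb2 and Nusap1 1384280_at the 4 ET3x2 pools lie above all 8 others, for Birc5, Cdca3 and Mcm5 above the S pools, and for Mcm2, Pcna and Top2a the ET3x2 and S pools overlap.

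Among the replication genes, differences went both ways. Of 14 probe sets that passed, 9 were above 0 in ET3x2 against S (median 0.11) and 8 in ET3x2 against ET3x1 (median 0.018), with 8 above 0 in ET3x1 against S (median 0.015). At an unadjusted p under 0.05 there were 2 higher and 1 lower, 2 higher and 2 lower, and 1 higher and 1 lower, where the shares of all probe sets are 6.89% and 3.98%, 6.71% and 6.39%, and 7.44% and 4.41%. A count of 1 or 2 among 14 probe sets cannot be read apart from this background. Mcm5, of the helicase ring that unwinds DNA at the fork, read 8.22, 8.26, 8.37 and 8.20 in S, 8.30, 8.55, 8.40 and 8.36 in ET3x1 and 8.46, 8.50, 8.67 and 8.50 in ET3x2 (1376055_at). The ET3x2 pools lay above all S pools, by 0.27 on average (SE 0.076, limma adjusted p = 0.201), and the ET3x1 pools lay between and overlapped with both. Mcm2, of the same ring, read 8.92, 9.09, 9.05 and 9.02 in S, 9.12, 9.13, 9.15 and 9.26 in ET3x1 and 9.18, 9.09, 9.12 and 9.30 in ET3x2 (1374036_at). All ET3x1 pools lay above the S pools, with a difference of 0.14 (limma adjusted p = 0.403), and the difference of ET3x2 from S was 0.15 (adjusted p = 0.448). Mcm3 and Mcm7, further subunits, were at −0.041 and −0.10 in ET3x2 against S.

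Pcna, the sliding clamp of the DNA polymerases, read 10.58, 10.51, 10.65 and 10.46 in S, 10.65, 10.50, 10.31 and 10.48 in ET3x1 and 10.80, 10.43, 10.77 and 10.63 in ET3x2 (1367671_at). These pools overlapped, with ET3x2 pool J the lowest of its strain, and the difference of ET3x2 from S was 0.11 (SE 0.097, limma adjusted p = 0.698). Lig1, which seals Okazaki fragments, read 7.44, 7.52, 7.61 and 7.56 in S, 7.80, 7.73, 8.02 and 7.66 in ET3x1 and 7.69, 7.66, 7.59 and 7.61 in ET3x2 on 1379195_s_at. The ET3x1 pools lay above the S pools, by 0.27 on average (SE 0.074, limma adjusted p = 0.147). On its probe set 1368204_at the same difference was 0.025. Tk1, which salvages thymidine, read 8.37, 8.20, 8.33 and 8.39 in S, 8.26, 8.01, 8.33 and 8.30 in ET3x1 and 8.60, 8.41, 8.52 and 8.45 in ET3x2 on 1389858_at. The ET3x2 pools lay above all others, by 0.17 from S and 0.27 from ET3x1 (SE 0.081, limma adjusted p = 0.442 and 0.133). Its 3 probe sets were at 0.17 to 0.19 from S and at 0.030 to 0.27 from ET3x1.

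Tyms, which makes thymidylate, read 7.36, 7.51, 7.42 and 7.80 in S, 7.54, 7.56, 7.87 and 7.57 in ET3x1 and 7.54, 7.45, 7.48 and 7.62 in ET3x2 (1369499_at). No strain stood apart, and the difference of ET3x2 from S was 0.0024 (limma adjusted p = 0.997). Rrm1, the large subunit of ribonucleotide reductase, was at 0.26 in ET3x1 and 0.14 in ET3x2 against S, with SE 0.14 and overlapping pools (adjusted p = 0.435 and 0.749). Dut, which breaks down dUTP so that uracil stays out of DNA, held the one called member difference against S. On 1395361_at it read 8.51, 8.43, 8.31 and 8.29 in S, 8.38, 8.15, 8.41 and 8.19 in ET3x1 and 7.94, 7.77, 7.96 and 7.86 in ET3x2. All 4 ET3x2 pools lay below the 8 others, and S and ET3x1 overlapped. It fell by 0.50 in ET3x2 against S (SE 0.076, 1.42-fold lower, limma adjusted p = 0.012) and by 0.40 against ET3x1 (1.32-fold lower, limma adjusted p = 0.0137). Against S the call ended without pool A (difference −0.46, adjusted p = 0.0528) and without A, B and J together (−0.38, adjusted p = 0.192), and against ET3x1 it ended without pool E (−0.37, adjusted p = 0.0624).

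The other Dut probe set, 1387865_at, read 10.63, 10.52, 10.47 and 10.16 in S, 10.28, 10.34, 9.95 and 10.06 in ET3x1 and 10.43, 10.50, 10.33 and 10.22 in ET3x2. ET3x2 overlapped with both other strains here, with −0.075 from S and 0.21 from ET3x1 (SE 0.11, limma adjusted p = 0.848 and 0.391), and ET3x1 was at −0.29 from S (adjusted p = 0.303). Which transcripts the probe sets read was not analysed here. RefSeq gives Dut 2 starts on the plus strand, and the windows before them are shown. Whether the starts bear on the difference between the probe sets was not tested.
Dut, first start (chr3:132952180-132952429): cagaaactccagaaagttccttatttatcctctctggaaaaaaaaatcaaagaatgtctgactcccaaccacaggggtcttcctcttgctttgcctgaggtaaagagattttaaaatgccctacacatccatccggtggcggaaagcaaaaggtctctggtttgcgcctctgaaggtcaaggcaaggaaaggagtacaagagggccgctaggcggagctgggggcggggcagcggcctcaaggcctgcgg
Dut, second start (chr3:132952649-132952898): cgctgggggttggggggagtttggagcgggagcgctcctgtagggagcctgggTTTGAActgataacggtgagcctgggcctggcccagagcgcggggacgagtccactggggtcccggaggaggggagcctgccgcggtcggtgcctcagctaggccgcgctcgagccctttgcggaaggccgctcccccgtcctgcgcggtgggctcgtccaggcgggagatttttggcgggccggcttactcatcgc
With the motifs above, the first window held no match and the second held 1 CHR motif.

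In the G1 list the D-type cyclins, which bind Cdk4 and pass on growth factor signals, gave the largest differences among the 45 probe sets in ET3x2 against S. Ccnd2 1370810_at read 9.38, 9.21, 9.54 and 9.44 in S, 9.48, 9.26, 9.65 and 9.10 in ET3x1 and 8.89, 8.67, 8.92 and 8.77 in ET3x2. All 4 ET3x2 pools lay below all 8 others. The difference from S was −0.58 (SE 0.11, limma adjusted p = 0.0585), which missed the threshold but passed under 5 of 20 alternatives. Against ET3x1 it fell by 0.56 (SE 0.11, 1.47-fold lower, limma adjusted p = 0.0294). This call ended without pool E (adjusted p = 0.104), G (0.109), I (0.0655), J (0.0752), K (0.0789) or L (0.052) and without A, B and J together (0.0592), with differences from −0.65 to −0.47 over all alternatives.

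Ccnd1 was read by 3 probe sets that went apart. On 1383075_at it read 11.99, 11.80, 11.75 and 11.63 in S, 11.71, 11.83, 11.98 and 11.49 in ET3x1 and 11.51, 11.24, 11.04 and 11.08 in ET3x2. The ET3x2 pools lay below the S pools, by 0.57 on average (SE 0.12, limma adjusted p = 0.0942), and pool I lay just above ET3x1 pool H, with a difference of −0.53 from ET3x1 (adjusted p = 0.0532). On 1371643_at, the brightest, it read 11.89, 11.61, 11.57 and 11.36 in S, 11.56, 11.60, 11.66 and 11.57 in ET3x1 and 11.84, 11.47, 11.59 and 11.59 in ET3x2. These pools overlapped throughout, with 0.016 from S and 0.026 from ET3x1 (adjusted p = 0.966 and 0.93). On 1371150_at the differences were −0.17 and −0.17 (adjusted p = 0.67 and 0.578). A statement on the level of Ccnd1 therefore depends on the probe set.

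The other G1 members overlapped between ET3x2 and S. Ccnd3, a further D-type cyclin, was at 0.13 (SE 0.10), Cdk4 at 0.15 (SE 0.11), the cyclin E gene Ccne1 at 0.057 and the probe sets of Cdk2, its partner, at 0.0044 and −0.00038 in ET3x2 against S. Over the 9 probe sets of this list the median was −0.019 for ET3x1 minus S, 0.0044 for ET3x2 minus S and 0.026 for ET3x2 minus ET3x1. Of the 10 member genes with several probe sets that passed, in any role, the probe sets had the same sign in 6, 6 and 8 in the 3 comparisons.

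**Figure D3:**
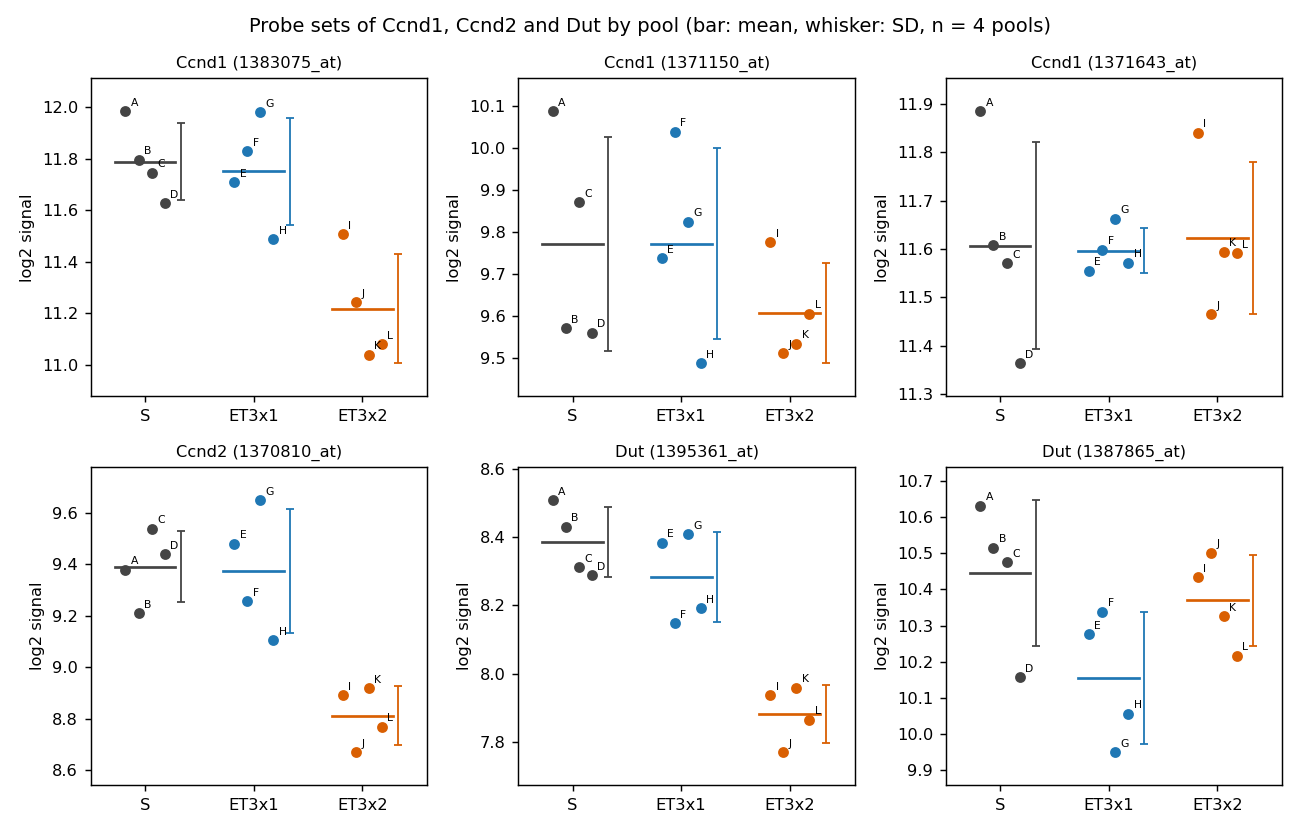
Log2 signal (y axis, own scale for each panel) of the probe sets of Ccnd1, Ccnd2 and Dut in the 12 pools, by strain, with each point a pool marked by its letter, the horizontal bar the mean and the whisker the SD of 4 pools. The ET3x2 pools are lowest on Ccnd2 and Dut 1395361_at, low on Ccnd1 1383075_at, and overlap with S on Ccnd1 1371643_at and 1371150_at and on Dut 1387865_at.

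The mean of the mitosis list in a pool, with each probe set centred on its mean of the 12 pools, was 0.0040, −0.051, −0.068 and −0.034 in S, −0.038, 0.00021, −0.14 and −0.010 in ET3x1 and 0.14, 0.11, 0.045 and 0.039 in ET3x2. All 4 ET3x2 pools lay above all others, and ET3x1 pool G was lowest. These means were not corrected for the overall level of a pool. The medians of the arrays ran from 8.49 to 8.60 on RAE230A and from 7.55 to 7.62 on RAE230B. The gap between the highest S pool (0.0040) and the lowest ET3x2 pool (0.039) is small beside that. For the replication list the means lay between −0.052 and −0.0096 in S, −0.032 and 0.022 in ET3x1 and −0.012 and 0.053 in ET3x2, and they overlapped. For the G1 list they lay between −0.051 and 0.15, −0.12 and 0.11, and −0.13 and 0.021.

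Markers of cells that could carry division were read beside these means. Of 11 T and B cell genes 9 were measured and 7 passed (Cd2 and Cd79b did not), and their list mean was −0.20 to −0.14 in S, −0.025 to 0.18 in ET3x1 and 0.041 to 0.15 in ET3x2. Their summed signal, on the log2 scale, was 10.98 to 11.09 in S, 11.29 to 11.76 in ET3x1 and 11.40 to 11.58 in ET3x2. Of their 9 tested probe sets 6 were above 0 in ET3x1 against S and 9 in ET3x2 against S, and those called were both of Jchain, of antibody-secreting cells, in ET3x1 and 1 of them in ET3x2. Without Jchain, taken out after the values were seen, 4 of 7 probe sets were above 0 in ET3x1 against S, 7 of 7 in ET3x2 against S (median 0.12) and 6 of 7 in ET3x2 against ET3x1 (median 0.10), with none called. The mean of these 7 was −0.073 to −0.041 in S, −0.082 to 0.055 in ET3x1 and 0.011 to 0.15 in ET3x2. All ET3x2 pools lay above the S pools, but ET3x1 pool H (0.055) lay above ET3x2 pool J (0.011). On average the mean of these 7 was −0.056 in S, −0.026 in ET3x1 and 0.082 in ET3x2. The mean of the mitosis list was −0.037, −0.046 and 0.084 in the same order. Of the injured tubule genes Havcr1, Lcn2, Spp1, Vim, Krt18 and Krt19 6 of 6 passed, with 0 called. In ET3x2 4 of 6 were above 0 against S (59.0% of all) and 6 of 6 against ET3x1 (60.8%). In ET3x1 against S 0 of 6 were above 0 (48.4% of all). The medians of the 6 genes were 0.085, 0.19 and −0.11 in this order. Their summed signal was 14.43 to 14.73 in S, 14.16 to 14.53 in ET3x1 and 14.45 to 14.68 in ET3x2, with list means of −0.14 to 0.11, −0.32 to 0.037 and 0.037 to 0.17. Slc12a1, the salt transporter of the thick ascending limb, was at −0.39 in ET3x2 against S (SE 0.11, limma adjusted p = 0.192) and −0.29 against ET3x1 (adjusted p = 0.207). The other kidney genes did not share a fall of this size. In ET3x2 against S Umod was at −0.049, Lrp2 at −0.091, Aqp2 at −0.093 and the probe sets of Slc34a1 at 0.059 and 0.11. The red cell genes Alas2 and Hbb were at 0.14 and 0.21 in ET3x2 against S and at 0.27 and 0.15 against ET3x1, with 0 called and list means of −0.22 to 0.12 in S, −0.16 to −0.020 in ET3x1 and −0.12 to 0.38 in ET3x2. Macrophage genes, 7 of 8 of which passed, had list means of −0.046 to −0.0089, −0.11 to 0.10 and −0.071 to 0.094. The part of these cells in the mitosis values was not tested.

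The actin 5′ minus 3′ signal of RAE230A, a control for how complete the RNA was, was −1.27, −1.27 and −1.14 in pools A, B and J and −2.10 to −1.66 in the other 9. Without these 3 pools the mitosis list had 18 of 22 above 0 (63.8% of all) and a median of 0.13 in ET3x2 against S. There 6 were higher at an unadjusted p under 0.05, where 5.88% of all were. Against ET3x1 21 of 22 were above 0, with a median of 0.12. With the actin signal as a covariate the same medians were 0.11 and 0.11.

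**Figure D4:**
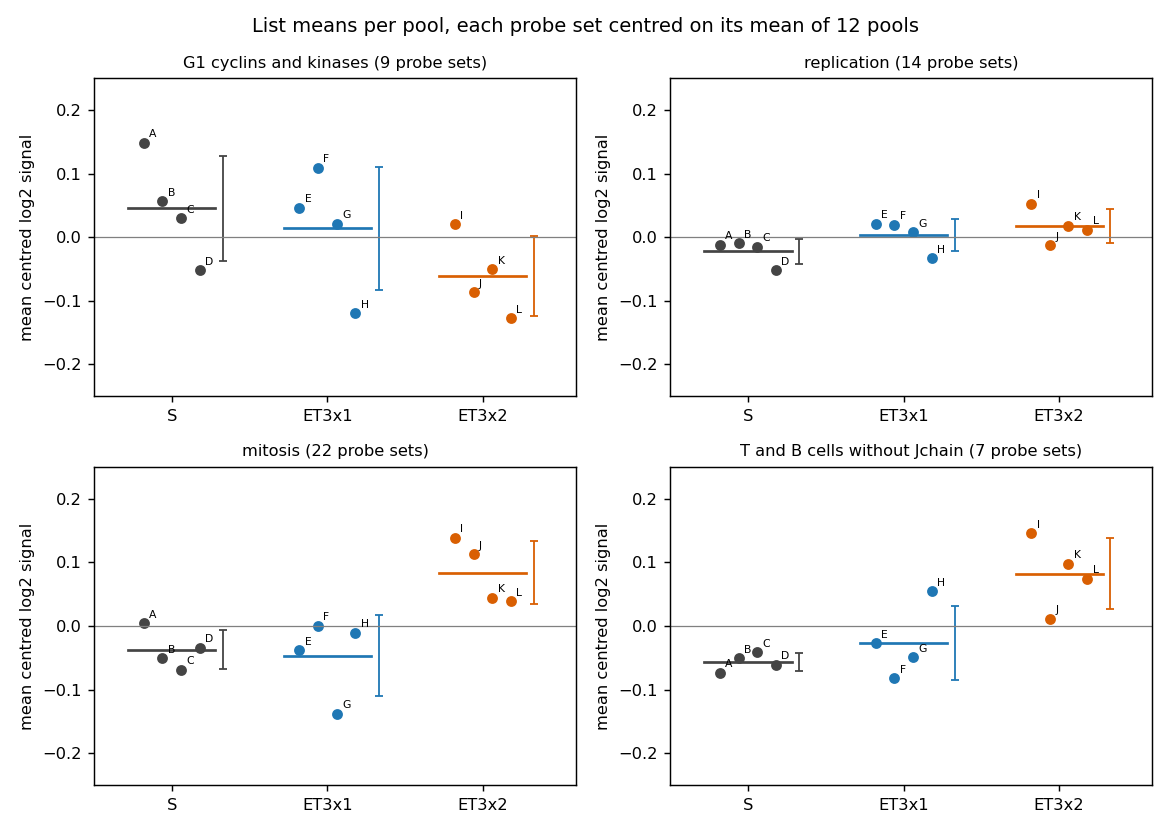
Mean of the centred log2 signal (y axis) per pool for the G1, replication and mitosis lists and for the T and B cell markers other than Jchain, by strain, with each point a pool marked by its letter, the horizontal bar the mean and the whisker the SD of 4 pools. In the mitosis panel the 4 ET3x2 pools lie at 0.039 to 0.14, above all 8 others, and in the T and B cell panel they lie at 0.011 to 0.15, above the S pools and overlapping with ET3x1. The means are not corrected for the overall level of a pool.

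Further genes of the cycle, which are not in the set of 40, were counted from lists of regulators, replication and mitosis genes. In none of the 3 comparisons was any of their 94 tested probe sets called. At an unadjusted p under 0.05, limma gave 7 higher and 2 lower for ET3x1 minus S, 7 and 1 for ET3x2 minus S and 12 and 5 in ET3x2 against ET3x1, where 7.44% and 4.41%, 6.89% and 3.98%, and 6.71% and 6.39% of all tested probe sets did so. The higher counts of both comparisons with S are near the background. Of 26 tested probe sets of other mitosis genes 23 were above 0 in ET3x2 against S (median 0.083) and 23 against ET3x1 (median 0.11), with 15 in ET3x1 against S (median 0.0090). Over all tested probe sets 59.0%, 60.8% and 48.4% were above 0 in these comparisons. Of these 26, 4 and 2 were higher and 0 lower in ET3x2 against S and against ET3x1 at an unadjusted p under 0.05. Of all, 6.89% and 6.71% were higher, so that the 2 against ET3x1 are near the background. Among those higher were Cks1b, Kif22, Racgap1 and Cdca8, named after their values were seen. Of 36 probe sets of other replication genes 24, 22 and 15 were above 0 in the same order (medians 0.047, 0.066 and −0.042).

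Of the inhibitors of cyclin-dependent kinases 8 probe sets were tested, with 5 above 0 in ET3x1 against S (median 0.033) and 6 in ET3x2 against S (median 0.096), and 0 called. Cdkn1b (p27) read 10.16, 10.03, 10.08 and 9.86 in S, 10.43, 10.37, 10.61 and 10.17 in ET3x1 and 10.09, 10.05, 10.04 and 10.01 in ET3x2 (1373812_at). The ET3x1 pools lay above all others, by 0.36 from S (SE 0.095, limma adjusted p = 0.17), and ET3x2 was at −0.35 from ET3x1 (adjusted p = 0.0989). Cdkn1c (p57) read 10.47, 10.43, 10.67 and 10.61 in S, 10.82, 10.91, 11.15 and 10.71 in ET3x1 and 10.72, 10.58, 10.62 and 10.68 in ET3x2 (1372299_at). Its ET3x1 pools lay above the S pools, by 0.35 (SE 0.095, limma adjusted p = 0.174), and ET3x2 pool I lay just above ET3x1 pool H. Cdkn1a (p21) was at 9.66 to 9.95 in S, 9.87 to 10.05 in ET3x1 and 9.93 to 10.12 in ET3x2 (1388674_at), ranges that overlapped, with 0.17 in ET3x2 against S (adjusted p = 0.474). The 5 probe sets of Cdkn2b, Cdkn2c and Cdkn2d lay between −0.066 and 0.049 in ET3x1 against S and between −0.028 and 0.14 in ET3x2 against S, and those of Cdkn2a and a further one each of Cdkn1a and Cdkn1b were under the filter.

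Rbl2 (p130), a pocket protein of resting cells, was at 9.10 to 9.44 in S, 9.35 to 9.75 in ET3x1 and 9.35 to 9.55 in ET3x2 (1368403_at), with 0.34 in ET3x1 against S (limma adjusted p = 0.191). E2f1 was at 8.69 to 9.07 in S, 8.63 to 8.87 in ET3x1 and 8.97 to 9.10 in ET3x2 (1382511_at). The ET3x2 pools lay above the ET3x1 pools, by 0.26 (SE 0.086, limma adjusted p = 0.215), and overlapped with S. Cdc25b, a phosphatase that activates Cdk1, was at 0.28 in ET3x2 against ET3x1 (adjusted p = 0.183, overlapping pools). Mybl2, which works on mitosis promoters with the MuvB complex, was at 0.16 in ET3x2 against S and 0.14 against ET3x1 on 1377962_at, with the ET3x2 pools above all others (limma adjusted p = 0.341 and 0.408). All these values missed the threshold.

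On chromosome 3, the chromosome of the congenic segments, lie 6 of the 39 measured members, with 8 probe sets of which 7 passed: Bub1b, Nusap1, Dut, Bub1, Pcna and Ube2c, in that order, all before Edn3 in the gene order of GRCr8. Dut, with 1 called probe set, is among them, while Ccnd1, Ccnd2, Cdk1 and Ccnb2 are on other chromosomes. Which of the 6 a segment holds was not analysed here.

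The 12 dim member probe sets carry no test. Mki67, the antigen of dividing cells, read 6.82 to 6.91 in S, 6.91 to 6.99 in ET3x1 and 6.90 to 7.11 in ET3x2 (1374775_at). Those ranges overlapped. Ccna2, the cyclin of S phase and G2, read 4.68 to 5.36, 4.91 to 5.14 and 5.06 to 5.18 (1379582_a_at), and Rrm2, the small subunit of ribonucleotide reductase, 5.14 to 5.54, 5.22 to 5.35 and 5.25 to 5.61 (1393848_at). Mcm6 read 7.16 to 7.33, 7.09 to 7.28 and 7.30 to 7.52 (1371074_a_at), with the ET3x2 pools above the ET3x1 pools. No fold is given for them, since the background level of the arrays is unknown.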

How the data were processed

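Each pool gave 1 RAE230A and 1 RAE230B array. Per the labels' protocols cDNA was primed with oligo(dT), so that signals lean to the 3′ end, and summarisation and normalisation are not given in the sources used here. The deposited values were taken as log2 signal from their range (4.97 to 15.2 and 4.10 to 14.3), and arrays give no read depth: their number limits the precision. Symbols came from the platform annotation. After leaving out 57 control probe sets per array type and the filter, 21799 probe sets were fitted with limma 3.58.1 (lmFit, eBayes with trend; R 4.3.3), two-sided, over 3 strains without covariates, checked on simulated data. P-values set a difference of strain means against the spread between pools, and not between single rats. Figures used matplotlib 3.10.9 (Python 3.11.15).

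Members and lists were chosen with earlier results of these data known. Values were given for 13 genes chosen by name where they passed (brightest probe set). They were also given for the 12 other member probe sets, and up to 6 regulators, with the smallest unadjusted p. Most are given in every pool, but Ccnb1, Cdkn1a, Rbl2 and E2f1 by range, and Cdc25b and Mybl2 by difference. Other exceptions are said beside them. Alternatives were no filter, the 50th percentile, quantile normalisation, array weights, no trend, 2 strains only, the actin signal as covariate, and leaving out pools. The mitosis list was followed through them after its values were seen.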

Additional observations from a re-analysis of the deposited data

Results flagged for a closer look

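Of 63 groups of 4 pools, over 21 named member probe sets, 2 held a pool that lay far from the other 3. Chance gives about 1 in 20, so that these 2 are no more than chance gives. Tyms 1369499_at read 7.87 in ET3x1 pool G, where the next of its strain was 7.57 and the lowest 7.54. Mad2l1 1398602_at read 8.09 in ET3x2 pool I, where the next of its strain was 7.90 and the lowest 7.87. The cause was not tested.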

How the results depend on the processing

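Only the 24 differences of named member probe sets with an unadjusted p under 0.05 were followed through the alternatives. Differences near 0, which turn more easily, were not followed. The direction of none of the 24 turned: of 475 values 441 kept their side of the threshold, 24 newly passed it and 10 no longer did. In ET3x1 against S the number of member probe sets called was 0 in all 20 alternatives. In ET3x2 against S, with 1 called, it was 2 with the filter at the 50th percentile, 4 with array weights, 4 with the actin covariate and 0 without pools A, B and J, and 0 to 3 when 1 pool was left out. In ET3x2 against ET3x1, with 2 called, it was 8 with array weights, 4 with the actin covariate and 1 without pools A, B and J, and 0 to 3 when 1 pool was left out. The share of all probe sets called is not given for these alternatives, so that the counts cannot be read as particular to the members. With array weights 10.1% and 15.2% of all were higher at an unadjusted p under 0.05, where 6.89% and 6.71% were in the main fit. The mean of the 45 differences, in place of the median, was 0.050 in ET3x2 against S and 0.053 in ET3x2 against ET3x1, since Ccnd1 1383075_at, Ccnd2 and Dut 1395361_at pull it down. The cause of the other changes was not tested. No paired analysis was possible because the pools carry a letter each and share no number between strains. Most mitosis differences are close to the spread between 4 pools, several members lie near the filter level, and pools of 2 or 3 rats hide single animals.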
